A study of Mus musculus with 12 samples.

Results

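The genes described here encode the proteins of the mitochondrial ribosome. They were taken as every row whose symbol is Mrpl or Mrps followed by a digit, without pseudogenes, which gave 77 of the 41388 genes in the table. All 77 passed the filter on low counts, beside 17441 genes in all. Of the 77, 50 encode proteins of the large subunit (among them Mrps18a and Mrps30, which keep a small-subunit name), 26 encode proteins of the small subunit, and Mrps36 is now known as a component of the 2-oxoglutarate dehydrogenase complex. The 4 pseudogene rows were left out and held at most 9 counts in a library.

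Cortex of adult C57Bl/6 mice was profiled by sequencing poly(A) RNA, in 12 libraries that each came from an animal with its own number. The knock-in mice (KI, 3 libraries) carry the Grin1-exon5+/+ genotype, in which exon 5 is constitutive, and were set against wild types of their line (KI_WT, 3 libraries). The knockout mice (KO, 3 libraries) carry Grin1-exon5-/- and were set against wild types of the knockout line (KO_WT, 3 libraries). Grin1 encodes the obligatory GluN1 subunit of NMDA receptors, and exon 5 is an alternatively spliced cassette of its extracellular amino-terminal domain. Both alleles concern 1 exon of the gene, and whole cortex was taken, so each value averages over all its cell types.

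Mitochondria translate the mRNAs of the 13 protein-coding genes of their own genome, all of them for subunits of the respiratory chain and ATP synthase. They do so on a ribosome whose RNAs come from mitochondrial DNA. Its proteins are encoded in the nucleus, made in the cytosol and imported. Many of these proteins descend from the bacterial ribosome, and others were added during the evolution of mitochondria, around ribosomal RNAs that became shorter. Neurons rely on oxidative phosphorylation for ion pumping, and inherited defects of several of these proteins in humans cause disorders of heart, liver and brain.

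The libraries held 31790970 to 36514024 counts. Grin1 itself, whose gene-level count does not show exon 5 alone, stood at 269 to 363 CPM, with overlap between each mutant and its wild types. The 5 neuronal markers summed to 4697 to 5877 CPM (counts scaled by TMM to a common library size) in the 12 libraries, but markers of neighbouring regions differed far more. Those of the olfactory bulb summed to 4.57 to 246 CPM, with KI 2, KI_WT 3, KO 1 and KO_WT 3 the highest of their groups, and those of the choroid plexus to 14.1 to 1890 CPM. KO 1 also stood apart for the genes described here: it was the highest library for 31 of the 77 (40.3%), against 11.8% of all tested genes. It lay above the gene's own mean for 72 of them, against 51.9% of all tested genes. KO_WT 2 and KO_WT 3 were the highest library for 0 of the 77 (6.27% and 4.52% of all genes). KI 3, KI_WT 1 and KO_WT 1 were the highest for 1 each (3.42%, 5.17% and 9.94% of all genes). For each comparison the range of the family's median with 1 library left out at a time is therefore given below. Single values are given for some libraries only.

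The ribosome is assembled from the products of genes scattered over the genome. Of the 77 genes, 76 had a position in the GENCODE annotation of GRCm38, on 17 chromosomes, with at most 10 on 1 chromosome (chromosome 11). A protein-coding gene on the opposite strand started within 1000 bp of 33 of them (43.4%), against 14.5% of the tested protein-coding genes, and within 200 bp of 21. Several of these partners are themselves mitochondrial: Mrps12 faces Sars2, the mitochondrial seryl-tRNA synthetase, Mrpl36 faces Ndufs6 and Mrpl47 faces Ndufb5, both subunits of complex I, and Mrpl43 faces the gene of the mitochondrial DNA helicase Twinkle. Mrps11 and Mrpl46 face each other.

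Promoters are printed for 6 of the genes named below, as examples that do not represent the family. They show the letters at the starts of genes whose products are assembled together. The promoters come from RefSeq (GRCm38.p6), run from 250 bases before to 50 bases after the start, and are written 5′ to 3′ on the gene's strand. Capitals mark matches on either strand to CCGGAAG (the core bound by ETS factors such as GABP, also called NRF-2), GCGCANGCG (NRF-1) or AANATGGCG (YY1), factors known for their part in nuclear genes of mitochondria. The windows are chr7:28741772-28742071 (minus strand) for Mrps12, chr11:97041332-97041631 (plus) for Mrpl10, chr10:95501900-95502199 (minus) for Mrpl42, chr7:78782881-78783180 (plus) for Mrps11, chr5:100798509-100798808 (plus) for Mrps18c and chr2:24975049-24975348 (minus) for Mrpl41.
Mrps12: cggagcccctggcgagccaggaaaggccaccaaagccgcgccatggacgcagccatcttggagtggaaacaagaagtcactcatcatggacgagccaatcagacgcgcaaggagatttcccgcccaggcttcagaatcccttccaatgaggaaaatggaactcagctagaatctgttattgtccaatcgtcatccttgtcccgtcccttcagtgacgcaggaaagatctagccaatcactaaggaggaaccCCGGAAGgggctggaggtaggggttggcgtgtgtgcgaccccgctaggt
Mrpl10: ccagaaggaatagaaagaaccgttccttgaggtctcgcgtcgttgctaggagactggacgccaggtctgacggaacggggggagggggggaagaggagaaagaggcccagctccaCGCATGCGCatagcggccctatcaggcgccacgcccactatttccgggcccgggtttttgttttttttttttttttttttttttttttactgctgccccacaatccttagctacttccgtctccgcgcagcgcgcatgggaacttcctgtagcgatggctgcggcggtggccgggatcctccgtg
Mrpl42: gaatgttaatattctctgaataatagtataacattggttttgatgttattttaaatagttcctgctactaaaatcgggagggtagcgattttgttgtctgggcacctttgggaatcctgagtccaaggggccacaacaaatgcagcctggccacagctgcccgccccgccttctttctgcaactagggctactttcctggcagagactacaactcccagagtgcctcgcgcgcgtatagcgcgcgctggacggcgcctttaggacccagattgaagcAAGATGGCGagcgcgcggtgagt
Mrps11: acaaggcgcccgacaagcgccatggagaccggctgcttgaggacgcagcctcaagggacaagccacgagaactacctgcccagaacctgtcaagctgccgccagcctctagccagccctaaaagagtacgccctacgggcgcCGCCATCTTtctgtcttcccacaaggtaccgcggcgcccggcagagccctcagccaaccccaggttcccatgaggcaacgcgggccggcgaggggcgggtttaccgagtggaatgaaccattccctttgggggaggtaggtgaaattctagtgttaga
Mrps18c: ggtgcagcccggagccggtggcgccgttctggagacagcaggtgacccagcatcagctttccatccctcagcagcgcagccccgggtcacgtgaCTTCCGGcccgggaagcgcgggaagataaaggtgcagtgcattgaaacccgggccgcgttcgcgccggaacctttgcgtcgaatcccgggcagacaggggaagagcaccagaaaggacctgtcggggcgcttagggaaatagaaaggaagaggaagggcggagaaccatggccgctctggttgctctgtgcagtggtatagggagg
Mrpl41: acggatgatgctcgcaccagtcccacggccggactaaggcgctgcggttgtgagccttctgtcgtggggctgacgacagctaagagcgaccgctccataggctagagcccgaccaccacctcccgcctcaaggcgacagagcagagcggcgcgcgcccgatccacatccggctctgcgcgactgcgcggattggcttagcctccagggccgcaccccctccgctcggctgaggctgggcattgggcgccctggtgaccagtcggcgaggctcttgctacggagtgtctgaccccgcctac

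Mrps12 and Mrps18c held the ETS letters, Mrpl10 the NRF-1 letters, and Mrpl42 and Mrps11 the YY1 letters, while the window of Mrpl41 held none of the 3. The window of Mrpl20, which is not printed, held none either. RefSeq windows were matched for 68 of the 77 genes (74 windows). The ETS letters stood in 33.8% of these windows, against 8.86% of all 32851 windows of the same length and 14.5% of those of tested genes. The NRF-1 letters stood in 21.6%, against 6.25% and 11.2%, and the YY1 letters in 13.5%, against 2.38% and 4.06%. At least 1 of the 3 was in 56.8%, against 15.4% and 26%. The Sp1 letters GGGCGG stood in 52.7%, against 35.7% of all windows and 58.3% of those of tested genes, and TATAAA in 6.76%, against 13.6% and 7.72%. The mean GC content was 59% in these windows and 60% in those of tested genes. These are matches of letters, with no measurement of binding.

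In levels per length (RPKM, as the authors computed them) the family was of moderate abundance and narrow spread. The mean over 12 libraries had a median of 12.5 RPKM over the 77 genes, against 4.45 RPKM over all tested genes, and 72 of the 77 lay above that median of all genes. Between 5 and 30 RPKM lay 65 genes. The large subunit had a median of 12.8 RPKM and the small subunit of 12.2 RPKM, and the 48 proteins with a bacterial homolog had a median of 13.8 RPKM, beside 12.2 RPKM for the 28 that mitochondria added. Other lists of mitochondrial and ribosomal genes stood higher. The median was 57.8 RPKM for 38 nuclear subunits of complex I and 109 RPKM for 78 cytosolic ribosomal proteins. It was 483 RPKM for the 13 protein-coding genes of mitochondrial DNA. These 13 ranged from 3.97 to 16220 RPKM, so their median is no typical level. The levels of the 77 genes also varied little between libraries. The highest library exceeded the lowest by a median of 1.27-fold over the 77 genes, against 1.51-fold over all tested genes. The 2 sets were not matched for level, and all tested genes reached down to 0.007 RPKM, where low counts widen the span.

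**Figure D1:**
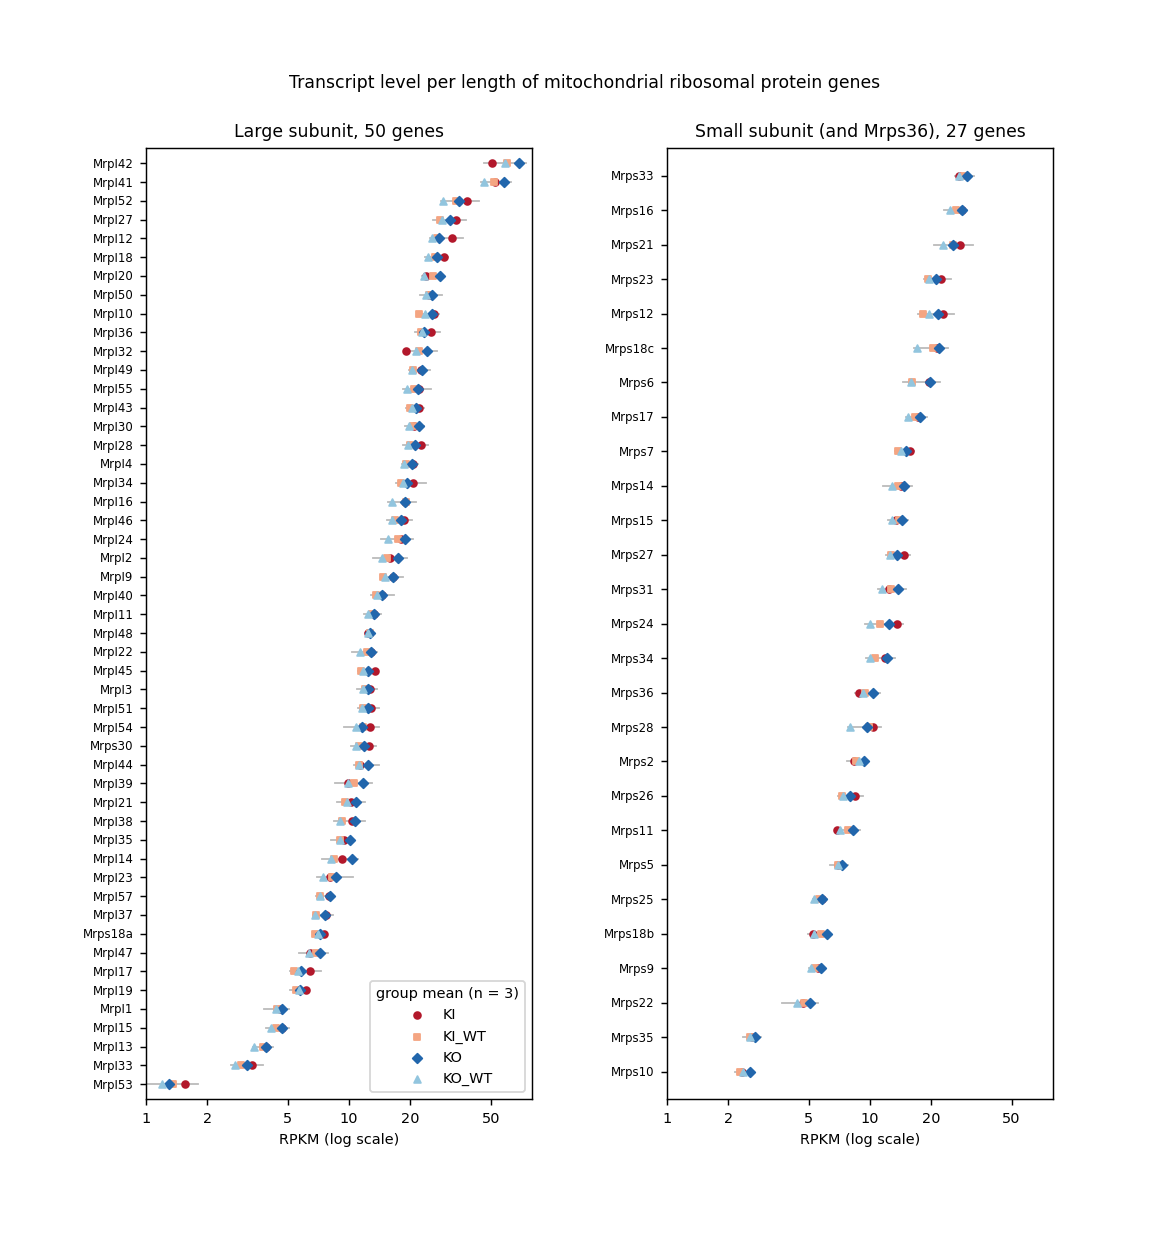
Level of each gene per length in RPKM (log axis), with points for the means of 3 libraries of KI, KI_WT, KO and KO_WT and a grey line from the lowest to the highest of 12 libraries. Genes run down by mean level; 65 of the 77 lie between 5 and 30 RPKM, and the 4 group means of most genes lie close together.

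The highest levels per length were those of Mrpl42 (59.6 RPKM), Mrpl41 (52.3 RPKM), Mrpl52 (33.9 RPKM), Mrpl27 (30.4 RPKM) and Mrps33 (28.5 RPKM). The lowest were those of Mrpl53 (1.35 RPKM), Mrps10 (2.39 RPKM), Mrps35 (2.61 RPKM), Mrpl33 (3.04 RPKM) and Mrpl13 (3.75 RPKM). The order depends on the length assigned to each gene. The deposited RPKM used 666 bp for Mrpl42, whose exons cover 3682 bp in the GENCODE annotation used for positions here, and with that length it would stand at 10.8 RPKM. Apart from Mrpl53, the 5 lowest had assigned lengths of 5543 to 8079 bp, against a median of 1777 bp over the 77 genes. Mrpl53 was low in counts as well (0.992 CPM on average), and 88.0% of its exon bases overlap another gene on the same strand.

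The 3 genes Mrps18a, Mrps18b and Mrps18c encode relatives of the bacterial protein S18, of which the first is placed in the large subunit and the others in the small subunit. Mrps18c averaged 20.2 RPKM, Mrps18a 7.16 RPKM and Mrps18b 5.59 RPKM. Mrps18a was among the steadiest genes of the family, with a 1.14-fold span over the 12 libraries, beside Mrps25 (1.11-fold) and Mrpl11 (1.15-fold), the protein at the base of the stalk. The widest spans among genes over 5 CPM were those of Mrpl42 (1.65-fold), Mrpl32 (1.496-fold) and Mrpl14 (1.44-fold).

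With exon 5 constitutive (KI against KI_WT), none of the 77 genes passed an adjusted p of 0.05, and the family was centred near no change. The genes' log2 fold changes had a median of 0.04, against -0.01 over all tested genes, and 47 of the 77 were above 0, against 48.7% of all genes. The large subunit had 34 of 50 genes above 0 (median 0.06) and the small subunit 13 of 26 (median 0.00). By edgeR's quasi-likelihood test 0 of the 77 were called, as were 0% of the 17441 genes, and DESeq2 and limma also called 0 of the 77. At an unadjusted p under 0.05, 6 genes were higher (3.04% of all genes) and 4 lower (3.92%). The median was 0.01 without KI_WT 1, 0.03 without KI 2 and 0.08 without KI 3, and the 6 higher genes numbered 3, 2 and 11 in the same order. The 4 lower genes numbered 0 without KI 2 or KI_WT 2 and 2 without KI 1 or KI 3, and both counts were 2 without the 4 libraries high in olfactory bulb markers. The 3 KI libraries all lay above the 3 KI_WT libraries for 15 genes (6.32% of all genes) and all below for 8 (5.87%). In tissue of many cell types, fewer cells of a type and less RNA per cell cannot be told apart.

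Of the genes higher in KI, Mrpl10 had the smallest unadjusted p, before Mrps12 and Mrpl45. Mrpl10, which anchors the stalk that recruits translation factors to the large subunit, had 43.9, 45.0 and 42.8 CPM in KI libraries, against 39.4, 39.3 and 36.9 CPM in KI_WT libraries. The groups did not overlap, and the log2 fold change was 0.19 (SE 0.06, edgeR adjusted p = 0.705). Mrpl12, the stalk protein itself, which is also known to bind the mitochondrial RNA polymerase, had 47.3, 52.8 and 44.6 CPM in KI libraries, against 42.3, 43.6 and 41.2 CPM in KI_WT libraries. KI 2 was the highest and the lowest KI library stood just above the highest KI_WT library; the log2 fold change was 0.19 (SE 0.07, edgeR adjusted p = 0.705). The base protein Mrpl11 had a log2 fold change of -0.02, with overlapping groups.

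At the exit of the peptide tunnel, Mrpl45, which helps to hold the ribosome at the inner membrane, had 34.4, 33.3 and 34.95 CPM in KI libraries, against 30.5, 29.4 and 31.0 CPM in KI_WT libraries. All KI libraries lay above all KI_WT libraries, with a log2 fold change of 0.18 (SE 0.06). Mrpl17, another protein near the exit, had 25.3, 28.5 and 24.6 CPM in KI libraries, against 22.0, 21.7 and 24.2 CPM in KI_WT libraries, a log2 fold change of 0.21 (SE 0.09). Mrpl24 in the same region had a log2 fold change of -0.02. Both Mrpl45 and Mrpl17 missed the threshold (edgeR adjusted p = 0.705 for each).

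In the small subunit, Mrps12, which lies at the decoding site, had 22.4, 25.6 and 21.6 CPM in KI libraries, against 20.7, 18.5 and 18.6 CPM in KI_WT libraries. The groups did not overlap and KI 2 was the highest; the log2 fold change was 0.27 (SE 0.09, edgeR adjusted p = 0.705). Its head-to-head neighbour Sars2 had a log2 fold change of -0.01 (SE 0.13). Mrps24, the relative of bacterial S3 at the entry of the mRNA, had 19.6, 20.3 and 18.4 CPM in KI libraries, against 15.1, 16.6 and 18.1 CPM in KI_WT libraries, a log2 fold change of 0.23 (SE 0.10). Another gene on the same strand overlaps 15.4% of its exon bases.

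On the lower side, 4 genes stood at an unadjusted p under 0.05. Mrpl42 had 36.0, 29.2 and 34.3 CPM in KI libraries, against 39.8, 45.8 and 36.7 CPM in KI_WT libraries. The groups did not overlap, though KI 1 and KI_WT 3 were close, and the log2 fold change was -0.30 (SE 0.11, edgeR adjusted p = 0.705). Mrpl32, which is matured by the m-AAA protease before it joins the ribosome, had 15.2, 13.6 and 14.5 CPM in KI libraries, against 17.0, 17.7 and 17.3 CPM in KI_WT libraries. Here the gap between groups was wider than the spread within either, with a log2 fold change of -0.26 (SE 0.10) and an adjusted p of 0.705 by edgeR. Its neighbour Psma2, a proteasome subunit, had a log2 fold change of -0.03 (SE 0.08). Mrps11 had 15.02, 14.2 and 14.6 CPM in KI libraries, against 15.1, 18.9 and 17.4 CPM in KI_WT libraries, and KI 1 and KI_WT 1 all but met. Its log2 fold change was -0.23 (SE 0.09) and that of its neighbour Mrpl46 was 0.11 (SE 0.08). Mrpl20 differed by -0.17 in log2 (SE 0.08), at an adjusted p of 0.715 by edgeR, again with groups that did not overlap.

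The mRNAs that this ribosome translates had larger fold changes. Of the 13 protein-coding genes of mitochondrial DNA, 10 were lower in KI than in KI_WT, with a median log2 fold change of -0.55. By edgeR, 7 of them had an unadjusted p under 0.05 and 0 an adjusted one. The list joins very unlike levels, from mt-Nd4l at 0.938 to 1.56 CPM to mt-Co1 at 15440 to 33422 CPM in these libraries. The cause of this range was not tested. The smallest p was that of mt-Co1, a catalytic subunit of complex IV, with 18702 ± 3035 CPM in KI and 27840 ± 5611 CPM in KI_WT (SD, n = 3 each; log2 fold change -0.57, SE 0.15, edgeR adjusted p = 0.705). These transcripts took 3.48% to 4.95% of counts in KI libraries and 5.06% to 7.63% in KI_WT libraries. Beside these values, thalamic markers summed to 166 to 279 CPM in KI libraries and 94.7 to 114 CPM in KI_WT libraries without overlap, all 5 of them higher in KI on average, and choroid plexus markers to 748 to 1890 CPM and 14.1 to 1612 CPM. All 4 olfactory bulb markers were lower in KI on average (11.01 to 45.4 CPM summed, against 6.34 to 246 CPM). KI_WT 3 (246 CPM) set that direction, since KI_WT 1 and KI_WT 2, at 6.34 and 9.02 CPM, lay below every KI library. All 5 neuronal markers were lower in KI on average as well, with sums that overlapped (4697 to 5425 CPM in KI libraries, against 5306 to 5856 CPM in KI_WT libraries). The other cell-type lists, striatum and blood had members on both sides and overlapping sums. No marker of these lists was at 0 in any library. The 4 Y-linked genes summed to 185, 0.0285 and 0.0876 CPM in KI 1, KI 2 and KI 3, against 0.0323, 217 and 234 CPM in the KI_WT libraries, and with a term for Y-linked expression the median of the 77 genes was 0.03. With terms for the olfactory bulb, choroid plexus and thalamus in the fit the median of the 77 genes was 0.09, and without the 4 libraries high in olfactory bulb markers it was 0.03.

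**Figure D2:**
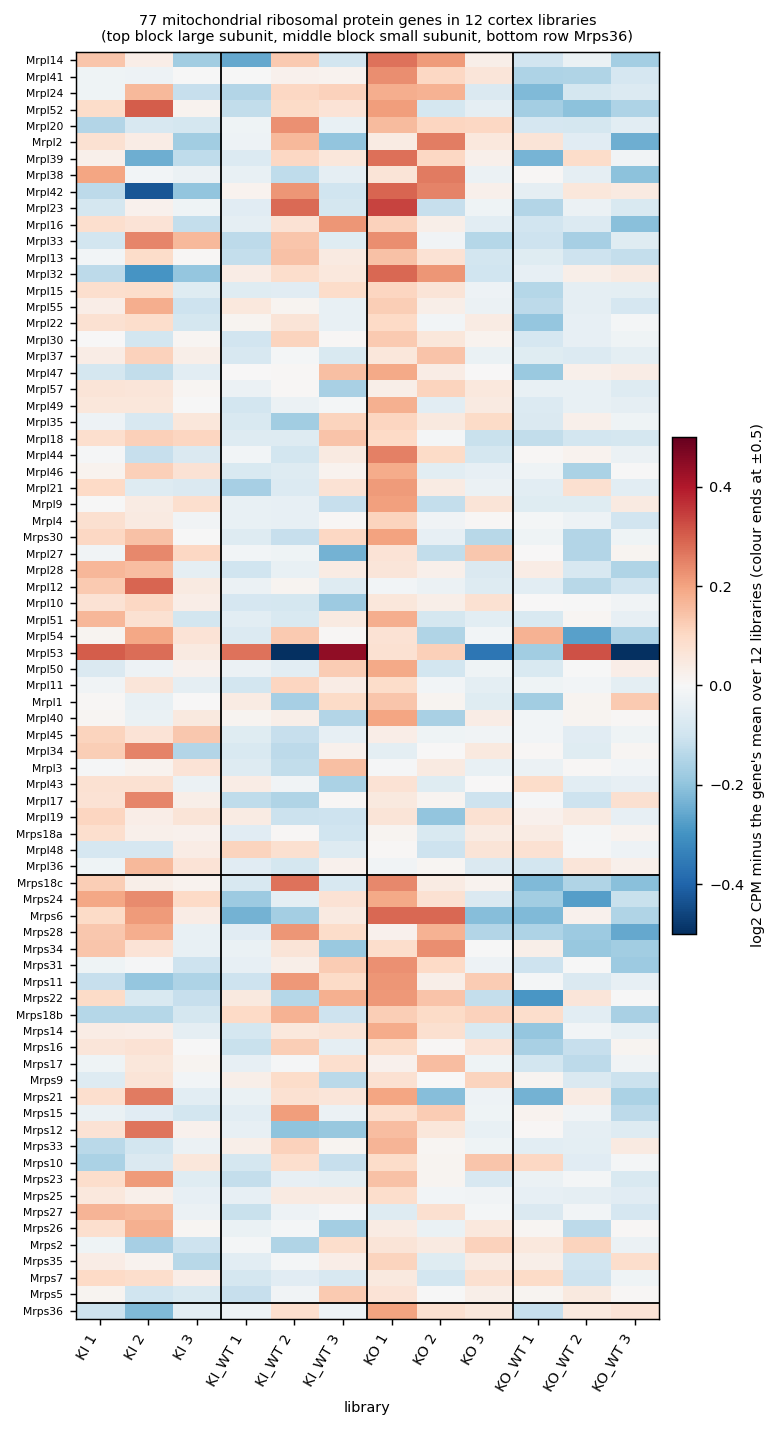
Each row is a gene and each column a library, with colour for the log2 CPM minus the gene's mean over 12 libraries (scale ends at ±0.5). The column of KO 1 is red for 72 of the 77 genes (51.9% of all tested genes lay above their mean there), and the 3 KO_WT columns are blue for most.

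With exon 5 absent (KO against KO_WT), most genes of the family stood slightly higher in KO, by amounts that no single gene's test passed. The log2 fold change was above 0 for 72 of the 77 genes, against 52% of all tested genes, with a median of 0.11 against 0.01 over all genes. All 26 genes of the small subunit and 45 of 50 of the large subunit were above 0, with medians of 0.11 and 0.09. By edgeR's quasi-likelihood test 0 of the 77 were called, against 0.00573% of all genes (1 gene), and DESeq2 and limma also called 0 of the 77. At an unadjusted p under 0.05, 6 genes were higher (3.43% of all genes) and 0 lower (3.79%). The libraries did not overlap for 18 genes with KO higher (5.95% of all genes) and for 0 with KO lower (6.4%).

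KO 1 set much of the size of this shift. The median over the 77 genes of the centred log2 level was 0.11, 0.03 and -0.02 in KO 1, KO 2 and KO 3, against -0.05, -0.04 and -0.04 in KO_WT 1, KO_WT 2 and KO_WT 3. Every KO library thus stood above every KO_WT library, KO 1 farthest. Without KO 1 the median log2 fold change was 0.06, with 60 of 77 genes above 0 and 1 gene at an unadjusted p under 0.05, while without KO 3 it was 0.14, with 16 genes. Without the 4 libraries high in olfactory bulb markers, which include KO 1 and KO_WT 3, it was 0.06, with 62 of 77 above 0. In shares of all counts, the 77 genes took 0.220% ± 0.0132 in KO and 0.199% ± 0.00376 in KO_WT (SD, n = 3 each), beside 0.218% ± 0.0109 in KI and 0.206% ± 0.00759 in KI_WT.

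**Figure D3:**
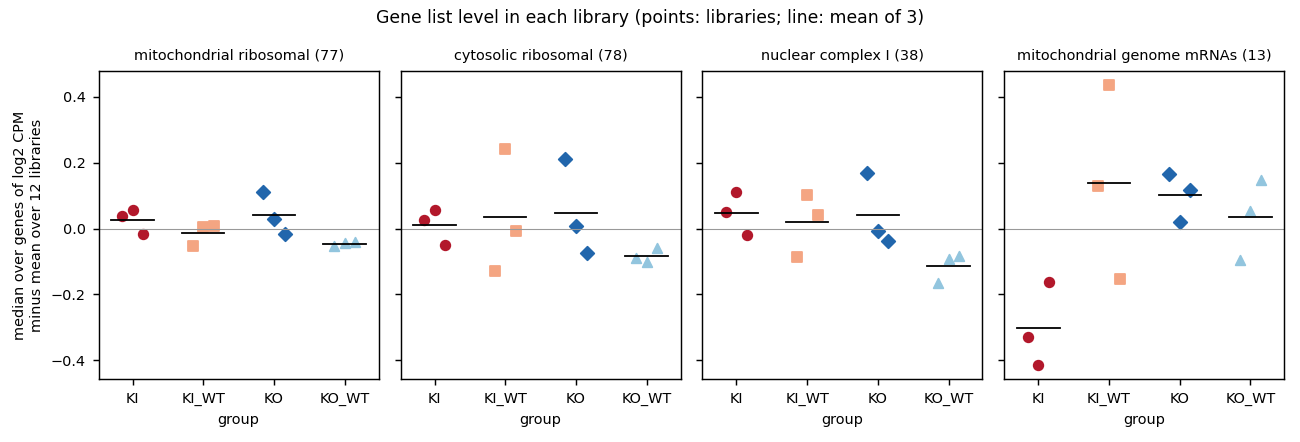
Median over genes of the centred log2 CPM in each library (vertical axis) for 4 gene lists, with points for libraries and lines for means of 3, in the groups KI, KI_WT, KO and KO_WT. For the 77 mitochondrial ribosomal genes KO 1 lies highest at 0.11 and the 3 KO_WT libraries lie together between -0.05 and -0.04.

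Mrpl41, a protein that mitochondria added to the large subunit, had the smallest p of the family. It had 47.5, 43.4 and 42.2 CPM in KO libraries, against 36.3, 36.4 and 38.1 CPM in KO_WT libraries. The lowest KO library stood above the highest KO_WT library by more than the KO_WT libraries differed among themselves, and the log2 fold change was 0.26 (SE 0.06, edgeR adjusted p = 0.678). The KI and KI_WT libraries lay between, at 39.7 to 41.0 CPM. Pnpla7, the lysophospholipase gene that starts 935 bp away on the opposite strand, had a log2 fold change of -0.34 (SE 0.14).

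Among genes of the small subunit, Mrps18c had 25.6, 22.3 and 21.9 CPM in KO libraries, against 18.6, 19.5 and 18.7 CPM in KO_WT libraries. The groups did not overlap, and the log2 fold change was 0.30 (SE 0.10, edgeR adjusted p = 0.678). Its counts are uncertain, since 23.2% of its exon bases lie under another gene on the same strand. The other relatives of S18 had log2 fold changes of 0.15 (Mrps18b) and -0.02 (Mrps18a). Mrps24 had 19.6, 18.1 and 16.3 CPM in KO libraries, against 15.2, 14.2 and 15.9 CPM in KO_WT libraries, with KO 3 just above KO_WT 3 and a log2 fold change of 0.25 (SE 0.10). Another gene on the same strand overlaps 15.4% of the exon bases of Mrps24. Mrps31 and Mrps34 had log2 fold changes of 0.20 and 0.22 with overlapping groups. Mrps34, a gene mutated in some human cases of Leigh syndrome, is also uncertain in its counts, since genes on the opposite strand cover 63.4% of its exon bases and 36.97% are covered on its own strand.

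In the large subunit, Mrpl20, an early assembly protein in bacteria, had 47.1, 45.4 and 45.3 CPM in KO libraries, against 39.8, 39.7 and 40.6 CPM in KO_WT libraries. The spread within either group was far smaller than the gap, and the log2 fold change was 0.20 (SE 0.08, edgeR adjusted p = 0.678). Mrpl14, which lies at the interface of the subunits, had 10.3, 9.87 and 8.70 CPM in KO libraries, against 7.97, 8.32 and 7.58 CPM in KO_WT libraries, a log2 fold change of 0.27 (SE 0.13). Mrpl52 had 0.21 (SE 0.11) with groups that did not overlap, and Mrpl24 and Mrpl38 had 0.22 and 0.18 with overlap. The stalk and exit genes described for KI had log2 fold changes of 0.06 (Mrpl10), 0.06 (Mrpl12), 0.03 (Mrpl45) and 0.00 (Mrpl17).

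**Figure D4:**
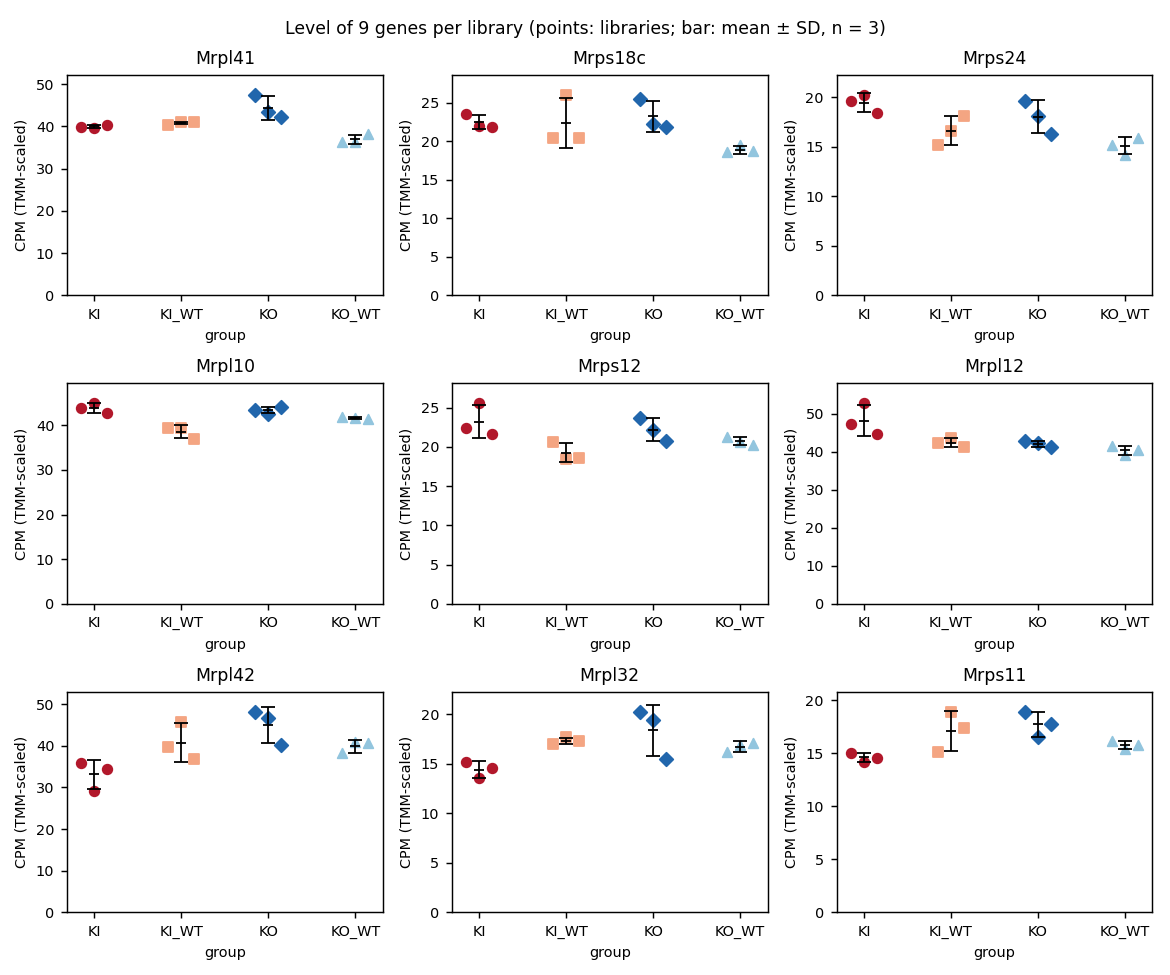
Level in TMM-scaled CPM of 9 genes in each library (points), with the mean ± SD of 3 libraries (bars), in KI, KI_WT, KO and KO_WT. KO lies above KO_WT in every library for Mrpl41, Mrps18c and Mrps24, and KI lies below KI_WT in every library for Mrpl42, Mrpl32 and Mrps11.

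Other gene lists stood higher in KO as well. Of 38 nuclear subunits of complex I, 37 had a log2 fold change above 0 (median 0.15), 11 of them at an unadjusted p under 0.05, and of 78 cytosolic ribosomal protein genes 76 were above 0 (median 0.14). KO 1 stood highest for both lists. The cytosolic genes' centred medians were 0.210, 0.007 and -0.073 in KO 1, KO 2 and KO 3, against -0.089, -0.102 and -0.060 in the KO_WT libraries. KO 3 thus lay below KO_WT 3. For complex I these medians were 0.167, -0.008 and -0.038, against -0.165, -0.094 and -0.084. The 6 mitoribosomal genes that lack an Mrp symbol (Dap3, Ptcd3, Chchd1, Aurkaip1, Gadd45gip1 and Ict1) were all above 0, with a median of 0.10. Genes that act on the ribosome rather than in it had lower medians of 0.07 for 22 assembly factors (15 above 0), 0.02 for 15 translation factors (11 above 0) and 0.02 for 17 mitochondrial tRNA synthetases (10 above 0). Leaving out Mrps11 and Mrpl46, which face each other, the 31 tested neighbours that start next to these genes had a median of 0.01 with 18 above 0, beside 0.09 with 31 above 0 for the 33 genes that have such a neighbour. None of the genes in these lists passed an adjusted p of 0.05.

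Within those lists the named genes are those of the smallest p, and each had an edgeR adjusted p of at least 0.678. In the KO comparison the assembly factor was Rnmtl1, a methyltransferase of mitochondrial ribosomal RNA, with 11.9 ± 1.49 CPM in KO and 9.71 ± 0.775 CPM in KO_WT (SD, n = 3 each; log2 fold change 0.30, SE 0.12). The translation factor was Slirp, the partner of Lrpprc on mitochondrial mRNAs (0.26, SE 0.13), the tRNA synthetase was Rars2 (0.17, SE 0.10), and the added ribosomal gene was Gadd45gip1 (0.14, SE 0.08). Of the 13 mitochondrial mRNAs 7 were above 0 (median 0.10), and mt-Nd3 had 0.46 (SE 0.24). Of the 4 genes that transcribe mitochondrial DNA 3 were above 0 (median 0.06), and the elongation factor Tefm had 0.18 (SE 0.14).

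Of 10 nuclear regulators of mitochondrial genes 3 were above 0 in KO (median -0.06). Nrf1 had 14.7 ± 1.49 CPM in KO and 17.0 ± 0.561 CPM in KO_WT, a log2 fold change of -0.21 (SE 0.09). All its KO libraries lay below all its KO_WT libraries. The NRF-1 letters stood in 21.6% of the matched promoter windows, and a link to the level of Nrf1 was not tested. In KI the regulators had a median of -0.02 with 4 above 0, and Gabpb2, a subunit of GABP, had -0.16 (SE 0.11).

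For KI against KI_WT the other lists lay on both sides of 0. Above 0 were 13 of 22 assembly factors (median 0.04), 11 of 17 tRNA synthetases (0.02), 7 of 15 translation factors (-0.03), 3 of the 6 added ribosomal genes (-0.01), 2 of the 4 transcription genes (0.00), 33 of 78 cytosolic ribosomal genes (-0.02) and 22 of 38 complex I genes (0.04). Lrpprc, which stabilises mitochondrial mRNAs, had 88.1 ± 4.54 CPM in KI and 77.1 ± 4.27 CPM in KI_WT (log2 fold change 0.19, SE 0.06), without overlap. The small-subunit gene Chchd1 had 18.4 ± 0.521 CPM in KI and 21.2 ± 2.44 CPM in KI_WT (log2 fold change -0.21, SE 0.09). The GTPase Gtpbp10, an assembly factor, had -0.17 (SE 0.10), the synthetase Fars2 had 0.18 (SE 0.09), and Tfb2m, a transcription initiation factor, had 20.6 ± 1.005 CPM in KI and 23.0 ± 1.39 CPM in KI_WT (log2 fold change -0.16, SE 0.08).

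Several cell-type and other markers moved with the KO comparison. Summed markers lay lower in every KO library than in every KO_WT library for astrocytes (3277 to 5473 CPM against 5511 to 6043 CPM), oligodendrocyte precursors (127 to 183 against 199 to 210), microglia (191 to 224 against 234 to 282), endothelium (158 to 191 against 201 to 232) and mural cells (39.1 to 50.8 against 56.4 to 64.0). All markers of these lists were lower in KO on average except 1 of the 5 astrocyte markers, and no marker was at 0 in any library. All 6 oligodendrocyte markers were lower in KO on average too, though their sums overlapped (4575 to 10098.5 CPM against 8474 to 10917 CPM). Markers of neighbouring regions overlapped too. Those of the choroid plexus (549 to 1049.5 CPM against 18.6 to 871 CPM) and the thalamus (104 to 292 against 85.3 to 212) were all higher in KO on average, those of the striatum (191 to 509.7 against 285 to 452) and blood (58.3 to 92.3 against 76.9 to 125) all lower, and those of the olfactory bulb lower for 3 of 4 (5.50 to 87.2 against 4.57 to 113). For the olfactory bulb, KO_WT 1 and KO_WT 2, at 4.88 and 4.57 CPM, lay below every KO library. Neuronal markers overlapped, at 4929 to 5833 CPM in KO libraries and 5277 to 5877 CPM in KO_WT libraries. The 4 Y-linked genes summed to 0.110, 0.120 and 198 CPM in KO 1, KO 2 and KO 3, against 191, 204 and 220 CPM in the KO_WT libraries. Animal numbers under 200 occurred in KO 1, KO_WT 2 and KO_WT 3. With a term for Y-linked expression the median of the 77 genes was 0.09, with a term for the number range 0.12, and with terms for the olfactory bulb, choroid plexus and thalamus also 0.12. The part of the glial and vascular markers in the result was not tested.

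**Figure D5:**
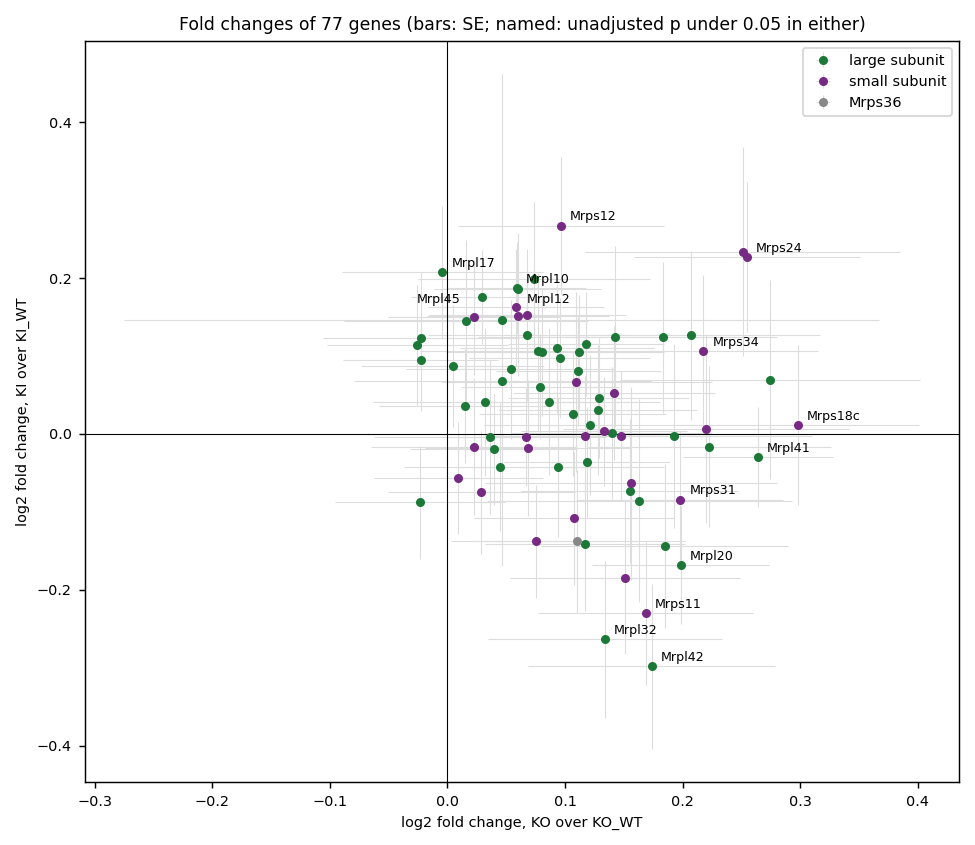
Log2 fold change of each gene for KO over KO_WT (horizontal axis) and KI over KI_WT (vertical axis), with bars for the SE and names for genes at an unadjusted p under 0.05 in either. Most points lie right of 0, where 72 of the 77 genes stand, while 47 stand above 0 on the vertical axis.

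Between the mutants themselves, KI and KO, the family differed little. For KI over KO the median log2 fold change was -0.02, with 30 of 77 genes above 0 (50.7% of all genes), and edgeR called 0 of the 77 (0.00573% of all genes). At an unadjusted p under 0.05, 1 gene was higher in KI (1.82% of all genes) and 8 were lower (3.61%). All KI libraries lay above all KO libraries for 2 genes (4.23% of all genes) and below for 13 (5.97%). Mrpl42, with 36.0, 29.2 and 34.3 CPM in KI libraries against 48.2, 46.8 and 40.1 CPM in KO libraries, differed by -0.44 in log2 (SE 0.11), at an adjusted p of 0.811 by edgeR. Mrpl32, with the KI values above against 20.3, 19.4 and 15.5 CPM in KO libraries, had -0.35 (SE 0.10, edgeR adjusted p = 0.878), and Mrps11, against 18.9, 16.6 and 17.8 CPM in KO libraries, had -0.28 (SE 0.09, edgeR adjusted p = 0.878). None of the 3 overlapped. Without KO 1 the median over the 77 genes turned to 0.03, and without KI 3 to 0.01, and it was 0.00 without the 4 libraries high in olfactory bulb markers. The 8 lower genes numbered 4 without KO 1 or KI 2, 5 without KI 3 and 1 without the 4 libraries.

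The wild types of both lines also differed slightly. For KI_WT over KO_WT the median log2 fold change of the 77 genes was 0.04, with 52 above 0 (50.1% of all genes) and 0 called by edgeR (0% of all genes). At an unadjusted p under 0.05, 4 genes were higher in KI_WT (1.11% of all genes) and 0 lower (0.849%). The 4 numbered 0 without KI_WT 2 or KO_WT 1, 1 without KO_WT 2 or KO_WT 3, 2 without KI_WT 3 and 7 without KI_WT 1, and the median was 0.06 without KI_WT 1 and 0.02 without KI_WT 2. All KI_WT libraries lay above all KO_WT libraries for 8 genes (3.48% of all genes) and below for 1 (3.83%). Mrps28, a relative of bacterial S1, had 7.08, 8.59 and 7.86 CPM in KI_WT libraries, against 6.61, 6.49 and 6.17 CPM in KO_WT libraries, with a log2 fold change of 0.29 (SE 0.12). Mrps18c and Mrpl16 had 0.24 (SE 0.10) and 0.21 (SE 0.09), and for all 3 genes the groups did not overlap (edgeR adjusted p = 0.9998 for each). Over the cytosolic ribosomal genes 76 of 78 were above 0 (median 0.12), and over nuclear complex I 37 of 38 (median 0.14). The cytosolic genes' centred medians were -0.129, 0.242 and -0.009 in KI_WT 1, KI_WT 2 and KI_WT 3, against -0.089, -0.102 and -0.060 in the KO_WT libraries. KI_WT 1 thus lay below every KO_WT library, and 0 of the 78 genes had libraries that did not overlap. For complex I these medians were -0.085, 0.101 and 0.042, against -0.165, -0.094 and -0.084. This comparison and that of KO with KO_WT share the 3 KO_WT libraries.

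The difference between the KI and the KO effect was tested for each gene, and 0 of the 77 were called (0.00573% of all genes). Its median was -0.06 on the log2 scale, with 25 of 77 above 0 (49% of all genes). At an unadjusted p under 0.05, 0 genes had a higher effect in KI (2.05% of all genes) and 8 a lower one (3.21%). The median was -0.02 without KO 1, -0.03 without KI 3, -0.04 without KI_WT 3, -0.10 without KI_WT 1 and -0.03 without the 4 libraries high in olfactory bulb markers, and the 8 lower genes numbered 5 without KO 1 or KI_WT 2 and 3 without the 4 libraries. The smallest p-values were those of Mrpl20 (-0.37, SE 0.11), Mrpl41 (-0.29, SE 0.09) and Mrpl42 (-0.47, SE 0.15), and edgeR's adjusted p was 0.918 for all 3. For Mrpl20 and Mrpl42 the log2 fold change was below 0 in KI and above 0 in KO, and for Mrpl41 it was -0.03 in KI and 0.26 in KO.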

How the data were processed

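Poly(A) RNA of 12 cortices was sequenced. The submitters' processing notes name bcl2fastq 2.17, STAR 2.5.0c, Cufflinks 2.2.1 and GRCm38 without roles; the counter, annotation and strand setting are not given in the sources used here, so reads of overlapping and antisense genes may be exchanged. The authors deposited raw counts per gene and, in a second table, RPKM values, per the labels. The ratio of count to RPKM implied a constant length per gene (largest deviation 0.0534%, 8292 genes). Columns were matched to library titles.

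The quasi-likelihood test of edgeR 4.0.16 (R 4.3.3) was applied to the counts of 17441 genes kept by filterByExpr, after TMM scaling, with 1 mean per group over 12 libraries. The residual degrees of freedom were 8 and the biological coefficient of variation was 15.7%. P-values were adjusted by Benjamini-Hochberg over all tested genes within each of 5 comparisons, with a threshold of 0.05. The fit was also run on simulated counts with known changes. The outcome is not given here, so how often changes of the size described would be called is not stated. With 3 against 3 libraries an exact permutation test of a single value cannot go below p = 0.1, so none is given. Centred levels are log2 CPM minus the gene's mean over libraries. Positions came from GENCODE M21.

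Genes named in the text are the 10 of smallest p for each mutant against its wild type, the 3 of smallest p for the other comparisons, the 5 highest and 5 lowest by RPKM, the 3 widest and 3 narrowest spans, the relatives of S18, and from other lists the gene of smallest p. Head-to-head neighbours were added after their values were seen. Cytosolic ribosomal genes were narrowed to 78 by leaving out kinases and -like genes. The 77 genes and all lists were chosen with earlier results of these data known. Alternatives were RLE factors, other count filters, DESeq2 1.42.0, limma 3.58.1 (voom with quality weights, and log2(RPKM + 0.1) or log2(RPKM + 1)), compared groups alone, each library left out, and terms for regional markers, Y-linked expression and animal number; leaving out 4 libraries high in olfactory bulb markers was added after the data were seen.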

Additional observations from a re-analysis of the deposited data

Results flagged for a closer look

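For 3 genes all KI libraries lay below all KI_WT libraries and all KO libraries above all KO_WT libraries. Taken singly, these held for 5.87% and 5.95% of all tested genes, and the share meeting both is not given here. The KI side was close to a tie for Mrpl41 (40.35 CPM in KI 3, 40.41 CPM in KI_WT 1) and Mrps11 (15.02 CPM in KI 1, 15.13 CPM in KI_WT 1). The difference of the KI and KO effects was -0.37 for Mrpl20 (log2 fold change -0.17 in KI and 0.20 in KO), -0.29 for Mrpl41 (-0.03 and 0.26) and -0.40 for Mrps11 (-0.23 and 0.17). By edgeR's test of the difference the unadjusted p was 0.00502, 0.00695 and 0.00977 in that order, and the adjusted p was 0.918 for each.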

How the results depend on the processing

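No gene of the 77 was called in any comparison under any alternative run. Medians of the 77 log2 fold changes moved by more than the spread between libraries of a group (SD 0.0416) in 8 cases. For KI over KI_WT the median was 0.0933 on log2(RPKM + 0.1), 0.0843 on log2(RPKM + 1) and 0.0946 with terms for regional markers; over all genes it was 0.0498 and 0.0382 on the RPKM scales. For KO over KO_WT it was 0.157 on log2(RPKM + 0.1), where that of all genes was 0.0522, and 0.0621 without the 4 libraries high in olfactory bulb markers. With 1 library left out at a time it ranged from 0.0120 to 0.0824 for KI over KI_WT, from 0.0571 (without KO 1) to 0.140 (without KO 3) for KO over KO_WT, from -0.0337 to 0.0322 (without KO 1) for KI over KO, from 0.0230 to 0.0629 for KI_WT over KO_WT, and from -0.103 to -0.0180 (without KO 1) for the difference. The cause was not tested. For KO over KO_WT, genes higher at an unadjusted p under 0.05 numbered 1 without KO 1, 1 without the 4 libraries, 11 with a term for the animal number range, 16 without KO 3, 14 on log2(RPKM + 0.1) and 17 on log2(RPKM + 1), against 6. For KI over KI_WT they numbered 2 without KI 2 or without the 4 libraries, 3 without KI_WT 1, 11 without KI 3 and 12 on log2(RPKM + 0.1). The 10 genes of smallest p kept their direction under all 18 alternatives in each mutant comparison. They were chosen by their p in the same libraries, so the kept direction is no independent support. No paired analysis was possible because each animal has its own number and replicate numbers were given in the order of the records. Depth limited Mrpl53, with 18 to 44 counts a library; the other 76 genes had at least 205.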

Other observations

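The length behind each RPKM value bears on the order of levels within the family. For 41 of the 76 genes with a position the length used in the deposited RPKM values equalled the exon bases of the GENCODE annotation to within 1 base, for 33 it was shorter and for 2 longer. With the annotation's lengths Mrpl41 would be the highest gene at 45.7 RPKM, followed by Mrps21 at 44.2 RPKM, and Mrpl32, at 21.8 RPKM as deposited, would stand at 3.36 RPKM. In counts alone Mrpl48 (76.9 CPM on average) and Mrpl3 (72.7 CPM) were the highest, and 70 of the 77 genes lay between 10 and 50 CPM.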
